A study of Mus musculus with 46 samples.

Results

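The genes described here are 10 members of the Bcl2 family, the proteins that set whether a cell lives or dies through its mitochondria. They were taken by gene symbol from 21231 genes listed across 3 tables of mouse RNA-seq. The 5 survival genes are Bcl2a1b, Bcl2a1d, Bcl2, Bcl2l1 and Mcl1. The 2 effectors are Bax and Bak1, and the 3 BH3-only death genes are Bid, Bcl2l11 and Bbc3. Levels are in FPKM, counted fragments scaled to gene length and library depth, so they are per length and can be set against each other within a table. A gene was tested where it reached 1 FPKM in at least 3 libraries of a table. All 10 were tested in both tables of sorted brain myeloid cells. Of the 8 read in brain tissue, 7 were tested and Bcl2l11 was below the minimum. Bcl2a1b and Bcl2a1d were not analysed here in tissue.

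Survival members of the family hold the death members in check by binding them through a short helix called the BH3 domain. When BH3-only proteins outnumber the survival proteins, Bax and Bak1 open the outer mitochondrial membrane, cytochrome c escapes and caspases are switched on. In myeloid cells A1, the product of the Bcl2a1 genes, is known as a survival protein made after inflammatory stimuli. Mcl1 is known as a short-lived protein on which neutrophils depend. Microglia, the resident macrophages of the brain, need signals through the receptor CSF1R to live, and the drug PLX3397 kills them by inhibiting that receptor.

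All mice were male, wild-type C57BL/6 and aged about 2 months when treatment began, without a transgene or a deleted gene. In the largest table, 24 libraries came from CD11b+CD45int cells sorted from whole hemispheres of controls given vehicle and of mice given PLX3397 at 600 ppm in chow for 14 days and then 28 days of recovery. The study calls the second kind white matter (WM) repopulating cells. Mice of both kinds received no LPS (0 hr), or bacterial LPS at 0.33 mg/kg into the peritoneum and were collected 6 or 24 hr later. There were 3, 5 and 4 control libraries at 0, 6 and 24 hr and 4 WM repopulating libraries at each time. A second table held the same sorted population from 4 control libraries and 3 libraries after GLOBAL repopulation, in which PLX3397 was given for 7 days before 28 days of recovery. The third held micro-dissected subventricular zone (SVZ) tissue, with 5 libraries each from controls, from mice on PLX3397 for 14 days and from mice after 5 days of recovery. The sort selects by CD11b and CD45 alone, so a library labelled WM repopulating holds every cell of that gate and not cells traced by origin. The study's methods count n as mice, and the labels number the libraries within each group.

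Library totals, recovered as whole reads from the FPKM steps, were 4948657 to 11024540 in the LPS table, 2052895 to 5630854 in the GLOBAL table and 8583048 to 18887844 in SVZ tissue. In control cells replicate 2 at 6 hr and replicate 4 at 24 hr stood apart, with mean correlations to the rest of their groups of 0.938 and 0.947 (log2 FPKM across genes) where every other library of that table had at least 0.9548. Results on the members that rest on these 2 libraries are given with and without them. All 10 fixed microglial markers were above 0 in every sorted library, and their summed level was 26407 to 32878 FPKM at 0 hr, 12314 to 16422 at 6 hr and 12957 to 24242 at 24 hr. Markers of other cells moved with time too. The 6 monocyte markers summed to 103 to 397 FPKM at 0 hr, to 1186 to 3313 at 6 hr and, at 24 hr, to 432 to 552 in control and 130 to 663 in WM repopulating cells. The 10 neutrophil markers summed to 1837 to 9017, 908 to 5795 and 6424 to 15338 FPKM in control cells at 0, 6 and 24 hr. In WM repopulating cells they summed to 2924 to 11015 FPKM at 0 hr and 3193 to 7224 at 24 hr, and at 6 hr to 10274 in replicate 1 against 441 to 832 in the other 3 libraries. Choroid plexus markers were lower at 24 than at 0 hr in both kinds, from 73.9 to 217 down to 35.3 to 51.8 FPKM in control and from 279.7 to 715 down to 10.5 to 32.03 FPKM in WM repopulating cells. The 4 oligodendrocyte precursor markers were highest at 6 hr, at 4.47 to 13.8 FPKM over both kinds against 0.0322 to 0.909 at 0 hr and 0.589 to 1.94 at 24 hr. In control cells astrocyte markers were higher at both later times (0.738 to 1.03 FPKM at 0 hr and 1.52 to 5.72 later) and oligodendrocyte markers lower (31.5 to 38.7 and 10.7 to 29.1 FPKM). In WM repopulating cells endothelial markers were higher at 6 than at 0 hr (5.25 to 6.88 and 2.40 to 5.07 FPKM) and border macrophage markers lower at 24 than at 6 hr (21.8 to 45.3 and 49.5 to 81.6 FPKM). Their part in the results below was not tested.

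Bcl2a1b and Bcl2a1d are near-identical copies that lie on mouse chromosome 9 with Bcl2a1a and Bcl2a1c. In GRCm38 coordinates Bcl2a1d spans chr9:88723288-88731850, Bcl2a1a chr9:88956920-88962416 and Bcl2a1b chr9:89199273-89207838. The first 120 coding bases of 3 copies are shown because the split of reads between the copies decides what their levels mean. Capitals in Bcl2a1b mark the 7 bases at which another copy differs from it, and capitals in the other copies mark where each differs from Bcl2a1b (GENCODE M21 transcripts, coding exon, 5′ to 3′ on the gene's strand, at chr9:89199360-89199479 on the plus strand, chr9:88957051-88957170 on the plus strand and chr9:88731600-88731719 on the minus strand).
Bcl2a1b: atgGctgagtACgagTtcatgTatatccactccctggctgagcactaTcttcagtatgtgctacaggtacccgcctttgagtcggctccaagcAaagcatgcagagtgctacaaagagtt
Bcl2a1a: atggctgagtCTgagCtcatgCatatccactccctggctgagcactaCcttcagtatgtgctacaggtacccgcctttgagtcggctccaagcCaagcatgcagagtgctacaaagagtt
Bcl2a1d: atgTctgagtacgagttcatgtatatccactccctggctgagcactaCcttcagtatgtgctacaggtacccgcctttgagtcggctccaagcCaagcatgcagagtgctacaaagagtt

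Bcl2a1d differed from Bcl2a1b at 3 of these bases and at 6 of the 516 bases of the whole coding sequence, an identity of 98.84%. Of the 821 windows of 43 bases along the Bcl2a1d transcript, 682 (83.07%) also occurred in another copy, against 481 of 775 (62.06%) for Bcl2a1b. With windows of 150 bases the shares were 30.25% and 14.22%. The read length was 43 bases in the study's methods and 150 bases in the labels. The level given to a single copy is therefore uncertain, and the sum of the 4 copies is given beside the differences called for Bcl2a1b or Bcl2a1d.

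Members of every role were called at 6 hr against 0 hr, as were many genes outside the family. In control cells 6 of the 10 members passed the test at 6 hr against 0 hr, 4 higher and 2 lower, where 42.5% of all 12684 genes passed, 21.4% higher and 21.1% lower (limma on log2(FPKM + 1), Benjamini-Hochberg adjustment over all genes, adjusted p under 0.05). In WM repopulating cells 7 of 10 passed at 6 hr, 4 higher and 3 lower, against 38.8% of all genes (19.3% higher and 19.5% lower). Higher in both were Bcl2a1d and Bax, and lower in both were Bid and Bcl2l11. The median log2 fold change of the members was 0.42 in control and 0.44 in WM repopulating cells, and that of all genes was 0.01 and -0.00. Groups did not overlap for 6 members in control cells and 8 in WM repopulating cells, where 38.1% and 39.9% of all genes were so separated. Without the 2 libraries that stood apart, all 10 members passed in control cells and 9 in WM repopulating cells, with 43.7% and 44.9% of genes. Both kinds of cell share a single estimate of spread in the fit, so control libraries also bear on the calls in WM repopulating cells.

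**Figure D1:**
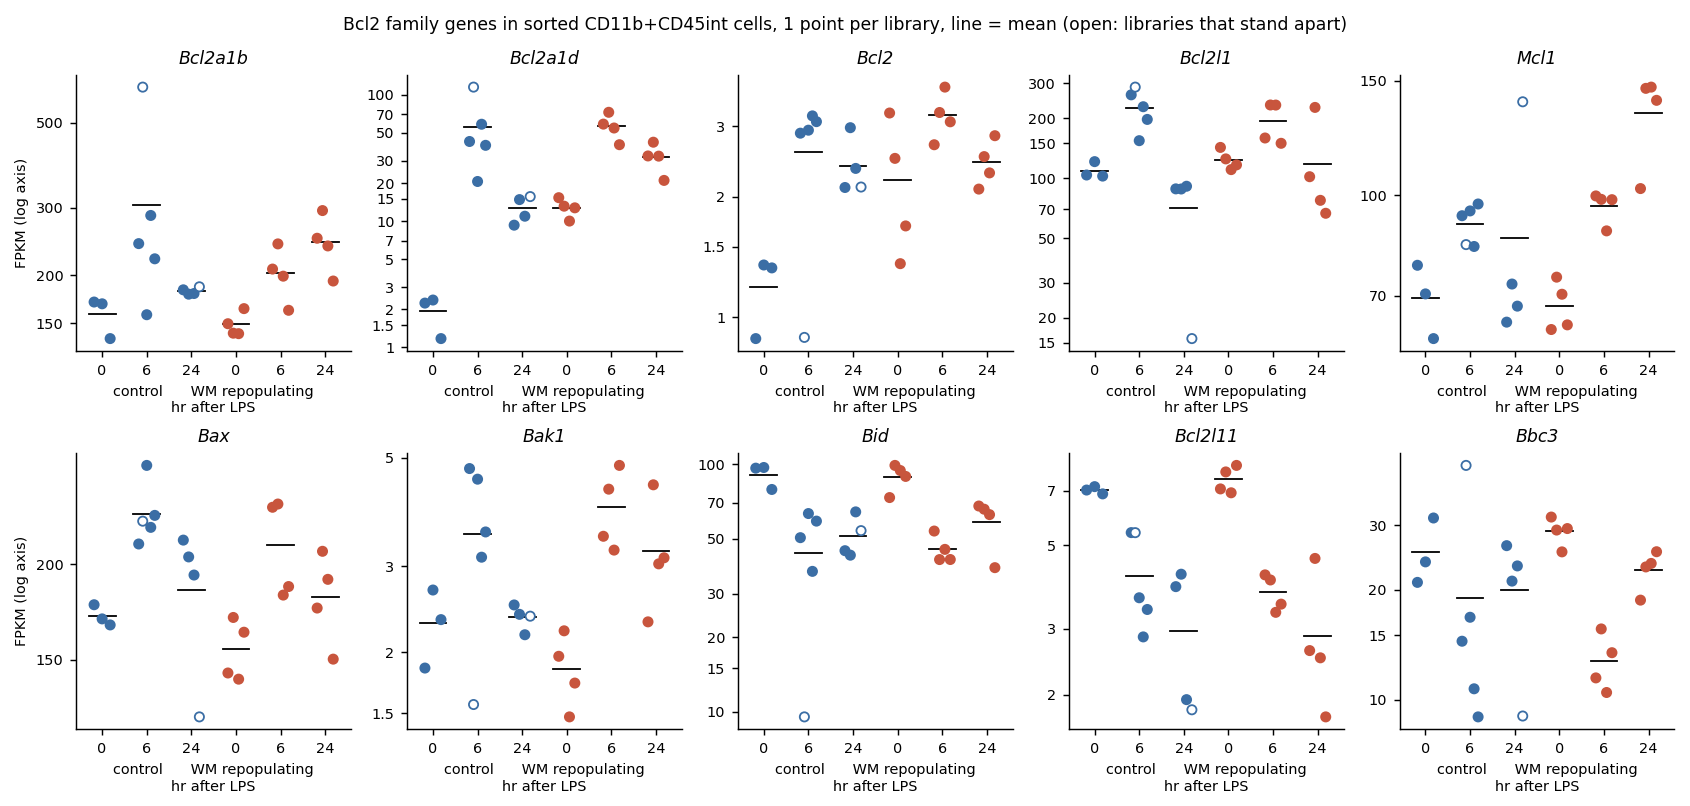
Level of each of the 10 genes (FPKM, log axis) in every library of the LPS table by hr after LPS, control in blue and WM repopulating in red, with a line at each group mean and open points for the 2 control libraries that stood apart. Bcl2a1d sits between 1.17 and 2.37 FPKM in control cells at 0 hr and at 10.01 or above in WM repopulating cells at 0 hr.

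At 24 hr against 0 hr, 2 members passed in control cells and 4 in WM repopulating cells, with backgrounds of 21.3% and 18.8% of all genes. Both kinds of cell had higher Bcl2a1d and lower Bcl2l11, and WM repopulating cells also had higher Mcl1 and Bcl2a1b. Groups did not overlap for 6 members in each kind of cell, against 29.5% and 25.1% of all genes. From 6 to 24 hr, Bcl2a1d and Bcl2l1 fell in control cells (28.3% of all genes passed). No member passed between those times in WM repopulating cells, where 15.7% of genes did. By limma 4 members had an unadjusted p under 0.05 there, the smallest adjusted p was 0.0775, and limma-voom on the recovered reads called 1 member. Without the libraries that stood apart the counts were 4 and 6 at 24 hr against 0 hr and 5 and 4 from 6 to 24 hr (22.8%, 25.6%, 23.8% and 22.9% of genes).

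**Figure D2:**
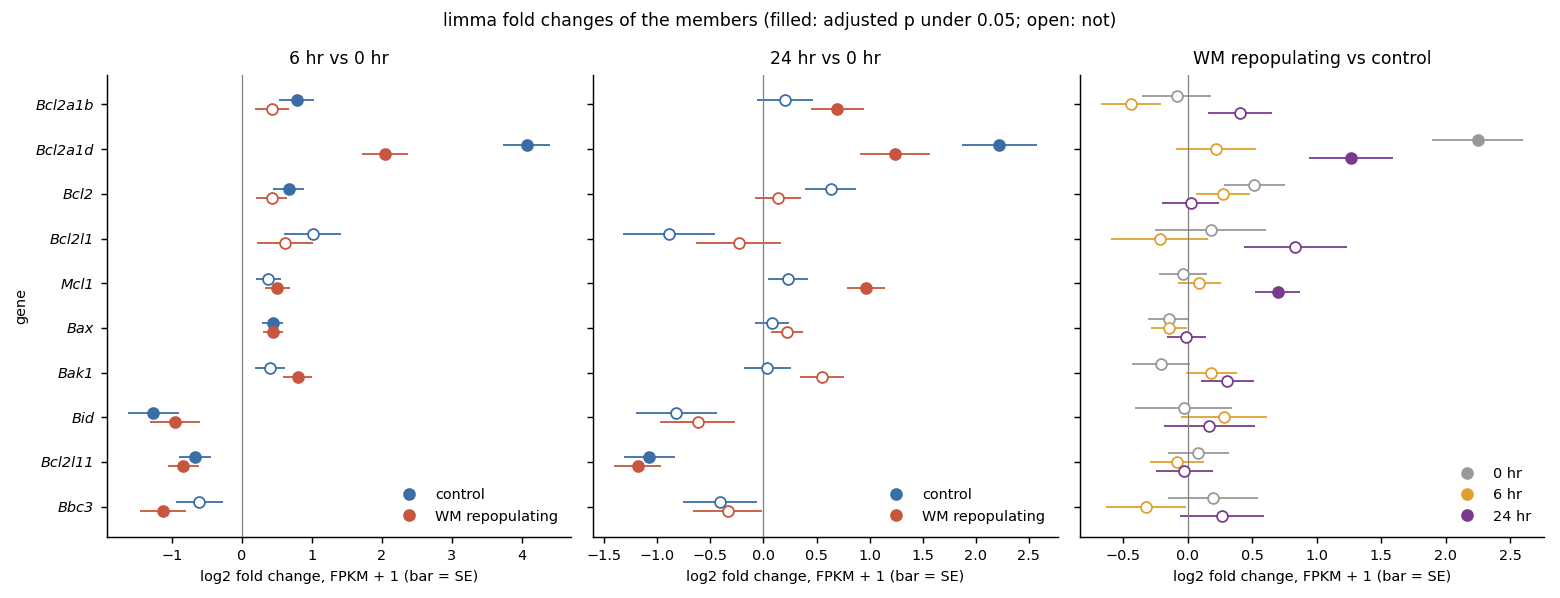
Log2 fold change of each of the 10 genes on the log2(FPKM + 1) scale with its standard error, in 3 panels of comparisons within the LPS table. Filled points have an adjusted p under 0.05 (limma), and the largest is Bcl2a1d in control cells at 6 hr, at 4.07.

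Among the survival genes, Bcl2a1d had the widest range. In control cells at 0 hr its level was 2.24, 2.37 and 1.17 FPKM, resting on 6 to 13 reads a library. At 6 hr it was 42.7, 115, 20.6, 58.5 and 39.8 FPKM, and at 24 hr 9.29, 14.8, 10.9 and 15.6 FPKM. The 3 times did not overlap. Bcl2a1d rose by 4.07 ± 0.34 on the log2 scale at 6 hr (SE, limma adjusted p = 1.66e-09), was still 2.22 ± 0.35 higher at 24 hr (adjusted p = 7.82e-05) and fell by 1.85 from 6 to 24 hr (SE 0.31, adjusted p = 9.47e-05). The 115 came from a library that stood apart, and without both such libraries the 6 hr change was 3.76.

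WM repopulating cells at 0 hr had Bcl2a1d at 15.3, 13.1, 10.01 and 12.7 FPKM, on 62 to 90 reads. At 6 hr the level was 58.6, 72.7, 54.6 and 40.3 FPKM, and at 24 hr 32.8, 42.1, 32.7 and 21.002 FPKM. Both later times lay above 0 hr, and they overlapped each other at 40.3 and 42.1. The rise was 2.04 ± 0.33 at 6 hr (limma adjusted p = 2.60e-05) and 1.24 ± 0.33 at 24 hr (adjusted p = 0.00935). From 6 to 24 hr the difference was -0.81, with an adjusted p of 0.0984 in all libraries and 0.0257 without those that stood apart.

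Bcl2a1b, the most abundant copy, was at 170, 169 and 137 FPKM in control cells at 0 hr. It was at 242, 619, 158, 287 and 221 FPKM at 6 hr and at 183, 179, 179 and 187 FPKM at 24 hr. The 0 and 6 hr groups overlapped at their edges, with 158 at 6 hr below 170 at 0 hr. The rise at 6 hr was 0.78 ± 0.25 (limma adjusted p = 0.0154). The 619 was a library that stood apart, and without both such libraries the rise was 0.49 (adjusted p = 0.0198). Without control replicate 3 at 0 hr it was not called (adjusted p = 0.0739).

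In WM repopulating cells Bcl2a1b was at 150, 141, 141 and 164 FPKM at 0 hr, 208, 242, 199 and 162 at 6 hr and 250, 295, 239 and 193 at 24 hr. The 24 hr libraries all lay above those at 0 hr, whereas 162 at 6 hr fell inside the 0 hr range. The rise at 24 hr was 0.70 ± 0.25 (limma adjusted p = 0.0495), and it was no longer called in 7 of the 8 fits that left out a single library (highest adjusted p = 0.134). The difference at 6 hr was 0.43 (adjusted p = 0.175), and it passed without the libraries that stood apart (adjusted p = 0.0254).

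Summed over its 4 copies, Bcl2a1 was at 181 ± 20.8 FPKM in control cells at 0 hr (SD, n = 3), 448 ± 269 at 6 hr (n = 5; 334 ± 93.9 without replicate 2) and 234 ± 10.04 at 24 hr (n = 4). The sum in WM repopulating cells was 193 ± 10.3, 333 ± 60.5 and 340 ± 64.2 FPKM (n = 4 each). The sum rose at 6 hr in control cells by 1.14 ± 0.27 (limma adjusted p = 0.00125), and in WM repopulating cells by 0.76 at 6 hr (adjusted p = 0.0212) and 0.80 at 24 hr (adjusted p = 0.0314). In control cells it fell by 0.76 from 6 to 24 hr (adjusted p = 0.0209), and without the libraries that stood apart it was 0.84 higher at 6 hr (adjusted p = 0.000677) and differed by -0.49 from 6 to 24 hr (adjusted p = 0.0559). In control cells at 24 hr the sum differed from 0 hr by 0.38 (adjusted p = 0.365), although Bcl2a1d on its own was called there.

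The copies were not in a fixed ratio. Bcl2a1d made up 1.05 ± 0.26% of the sum in control cells at 0 hr, 11.98 ± 1.53% at 6 hr and 5.40 ± 1.16% at 24 hr. It made up 6.63 ± 1.11%, 16.9 ± 0.98% and 9.33 ± 0.86% in WM repopulating cells. Bcl2a1b held 87.8% in control cells at 0 hr and 61.2% in WM repopulating cells at 6 hr, its highest and lowest means in that table. In the GLOBAL table, whose controls came from the same gate without LPS, Bcl2a1d made up 23.2 ± 2.06% of the sum in control cells (n = 4) and 25.4 ± 1.44% after repopulation (n = 3), and Bcl2a1b 58.8% and 52.1%. The low share of Bcl2a1d in control cells at 0 hr was therefore not found in the other sorted controls of the series. These shares are a description without a test.

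**Figure D3:**
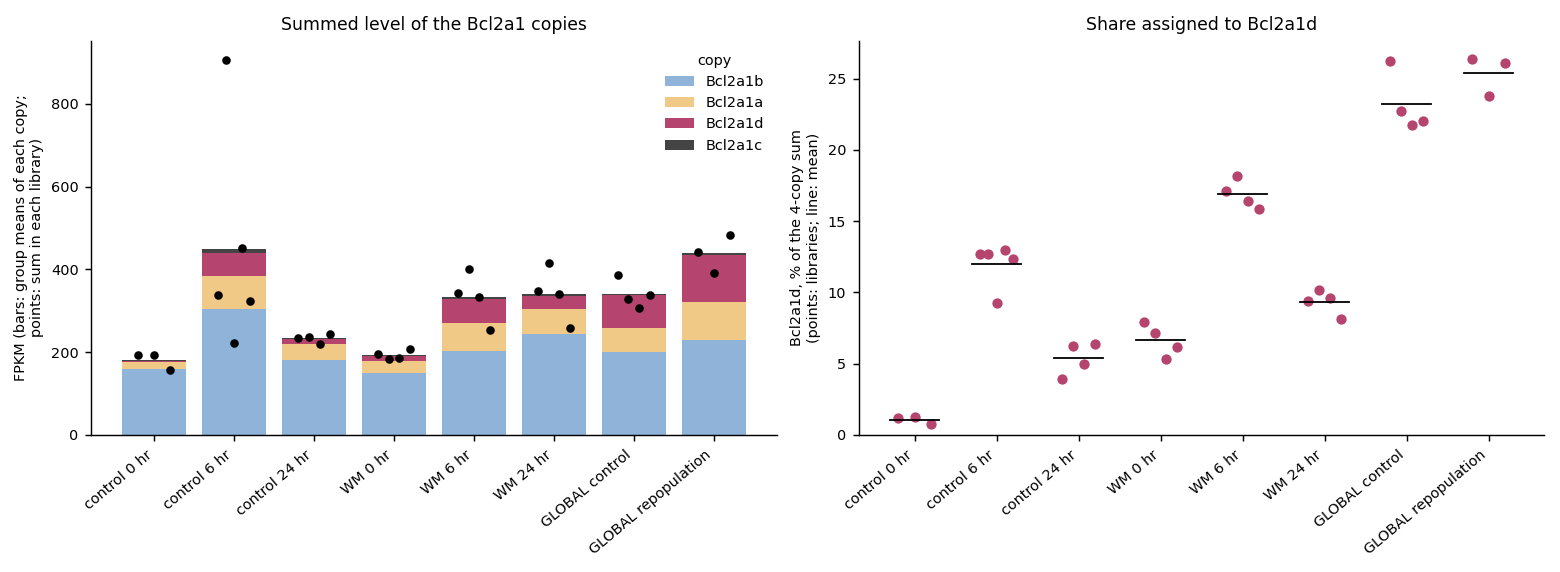
Left, mean level of the 4 Bcl2a1 copies stacked (FPKM, bars from 0) with a point for the sum in each library. Right, the percent of the sum given to Bcl2a1d in each library, with the mean; the 3 control libraries at 0 hr lie near 1.05%, below every other library shown.

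Bcl2, the founding survival gene, was low per length. It was at 0.883, 1.35 and 1.33 FPKM in control cells at 0 hr, at 2.88, 0.889, 2.93, 3.18 and 3.08 at 6 hr and at 2.11, 2.97, 2.35 and 2.11 at 24 hr. The 4 control libraries near 3 FPKM at 6 hr lay above all those at 0 hr, and replicate 2, which stood apart, lay with the 0 hr libraries. The rise at 6 hr was 0.67 ± 0.23 (limma adjusted p = 0.0202), and 0.89 (adjusted p = 0.000462) without the libraries that stood apart. It was not called by limma-voom (1.01, adjusted p = 0.0660) or without control replicate 1 at 0 hr (adjusted p = 0.0935). WM repopulating cells held Bcl2 at 3.24, 2.49, 1.36 and 1.69 FPKM at 0 hr, 2.70, 3.25, 3.76 and 3.08 at 6 hr and 2.09, 2.52, 2.29 and 2.84 at 24 hr. The groups overlapped and no time difference was called with all libraries in the fit. Without those that stood apart, Bcl2 passed in WM repopulating cells at 6 hr, at 0.42 (adjusted p = 0.0469; 0.132 with all libraries), and in control cells at 24 hr against 0 hr, at 0.67 (adjusted p = 0.0168; 0.0599 with all).

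Bcl2l1, which encodes Bcl-xL, was the next survival gene by level at 0 hr after Bcl2a1b. Control cells held 104, 121 and 103 FPKM at 0 hr, 262, 287, 155, 229 and 197 at 6 hr and 88.6, 88.5, 91.3 and 15.8 at 24 hr. Every library at 6 hr lay above every library at the other times. The difference at 6 hr was 1.01 (limma adjusted p = 0.0505), and without the libraries that stood apart 0.92 (adjusted p = 0.00879). From 6 to 24 hr Bcl2l1 fell by 1.90 (SE 0.38, adjusted p = 0.000551), or by 1.20 (adjusted p = 0.00240) without those libraries, of which the one at 24 hr gave the 15.8. In WM repopulating cells the level was 143, 125, 111 and 117 FPKM at 0 hr, 159, 233, 233 and 150 at 6 hr and 102, 227, 77.6 and 66.9 at 24 hr. One 24 hr library thus lay among those at 6 hr, and no time difference was called with all libraries. Without those that stood apart Bcl2l1 fell by 0.85 from 6 to 24 hr (limma adjusted p = 0.0172; 0.154 with all).

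Mcl1 was the third survival gene by level at 0 hr. Control cells held 77.9, 70.4 and 60.1 FPKM at 0 hr, 92.9, 83.9, 94.5, 83.3 and 96.9 at 6 hr and 63.7, 72.9, 67.4 and 139 at 24 hr. The 139 was the library that stood apart, and the other 3 at 24 hr lay within the 0 hr range. WM repopulating cells held 62.0, 74.7, 70.3 and 63.1 FPKM at 0 hr, 99.7, 98.5, 88.1 and 98.4 at 6 hr and 102, 146, 147 and 140 at 24 hr. In these cells the 3 times did not overlap, and Mcl1 rose by 0.51 ± 0.18 at 6 hr (limma adjusted p = 0.0249) and 0.96 ± 0.18 at 24 hr (adjusted p = 0.000360). The call at 6 hr was lost in 4 of 8 fits that left out a single library (highest adjusted p = 0.0621). In control cells the difference at 6 hr was 0.38 (limma adjusted p = 0.0965), and 0.40 (adjusted p = 0.01003) without the libraries that stood apart. Without them Mcl1 fell by 0.43 from 6 to 24 hr in control cells (adjusted p = 0.0127). With all libraries that difference was -0.15 (adjusted p = 0.545) and was not called. In WM repopulating cells Mcl1 was 0.46 higher at 24 than at 6 hr, with an adjusted p of 0.0775 in all libraries and 0.00509 without those that stood apart.

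Of the effectors, Bax was abundant and Bak1 scarce, at 171 ± 5.40 and 2.29 ± 0.415 FPKM in control cells at 0 hr (SD, n = 3). Bax was at 177, 170 and 167 FPKM there and at 213, 228, 270, 224 and 232 at 6 hr. It was at 144, 170, 141 and 163 FPKM in WM repopulating cells at 0 hr and 238, 240, 182 and 187 at 6 hr. No 6 hr library overlapped the 0 hr group of its kind, and Bax rose by 0.44 ± 0.15 in both (limma adjusted p = 0.0223 in control and 0.0197 in WM repopulating cells). At 24 hr it was at 215, 205, 194 and 126 FPKM in control and 175, 208, 191 and 150 FPKM in WM repopulating cells, and neither differed from 0 hr by the test. The call at 6 hr was lost in 3 of 8 and 4 of 8 fits that left out a single library.

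Bak1 was at 1.86, 2.68 and 2.33 FPKM in control cells at 0 hr and at 4.76, 1.56, 4.52, 3.13 and 3.53 at 6 hr. The lowest of these, 1.56, was the library that stood apart, and the groups overlapped only through it. Bak1 did not pass with it (limma adjusted p = 0.134) and was 0.59 higher without both such libraries (adjusted p = 0.0116). Bak1 in WM repopulating cells was at 1.96, 2.21, 1.48 and 1.73 FPKM at 0 hr and at 3.46, 4.32, 3.24 and 4.83 at 6 hr. These groups did not overlap, and the rise was 0.80 ± 0.21 (adjusted p = 0.00368). At 23 to 60 reads a library in the latter groups, Bak1 was counted less precisely than Bax. At 24 hr it was at 2.17 to 2.501 FPKM in control and 2.31 to 4.41 FPKM in WM repopulating cells. Against 0 hr the latter differed by 0.55, with an adjusted p of 0.0650 in all libraries and 0.0194 without those that stood apart. Without them Bak1 also fell in control cells from 6 to 24 hr, by 0.56 (adjusted p = 0.0293; 0.169 with all).

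All 3 BH3-only genes among the 10 members fell in WM repopulating cells at 6 hr, whereas Bmf, a BH3-only gene outside the 10, rose by 1.64 (limma adjusted p = 1.04e-06). Bid, whose protein links death receptors to mitochondria, was at 73.4, 99.0, 94.4 and 89.4 FPKM at 0 hr and at 53.8, 41.2, 45.3 and 41.2 at 6 hr. Bcl2l11, which encodes Bim, was at 7.08, 7.86, 6.91 and 8.18 FPKM and then 4.17, 4.04, 3.31 and 3.49. Bbc3, which encodes Puma and is a target of p53, was at 31.6, 29.1, 25.4 and 29.4 FPKM and then 11.5, 15.6, 10.5 and 13.5. No 6 hr library reached the 0 hr range for any of the 3 genes. On the log2 scale Bid fell by 0.96 (SE 0.35, limma adjusted p = 0.0334), Bcl2l11 by 0.84 (SE 0.22, adjusted p = 0.00394) and Bbc3 by 1.13 (SE 0.32, adjusted p = 0.00777). The call for Bid was lost in 6 of 8 fits that left out a single library, with values from -1.05 to -0.90, and by limma-voom (adjusted p = 0.0663).

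In control cells Bid was at 96.5, 97.1 and 79.2 FPKM at 0 hr, 50.5, 9.52, 63.3, 36.9 and 59.0 at 6 hr and 44.8, 42.9, 64.3 and 54.0 at 24 hr. Both later times lay wholly below 0 hr. It fell by 1.27 at 6 hr (SE 0.36, limma adjusted p = 0.00664), or by 0.81 (adjusted p = 0.00189) without the libraries that stood apart, of which the one at 6 hr gave the 9.52. At 24 hr it passed only without them, when it fell by 0.85 (limma adjusted p = 0.00511; 0.129 with all). WM repopulating cells at 24 hr held Bid at 67.9, 65.9, 62.6 and 38.2 FPKM, all below 0 hr. There too it passed only without those libraries, at -0.62 (limma adjusted p = 0.0141; 0.234 with all).

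Bcl2l11 in control cells was at 7.03, 7.18 and 6.87 FPKM at 0 hr, 5.41, 5.41, 3.63, 2.85 and 3.37 at 6 hr and 3.88, 4.19, 1.94 and 1.82 at 24 hr. Its mean was lowest at 24 hr in both kinds of cell, with 2.62, 4.62, 2.51 and 1.74 FPKM in WM repopulating cells. Neither 24 hr group overlapped its 0 hr group. Bcl2l11 fell in control cells by 0.68 at 6 hr (SE 0.23, limma adjusted p = 0.0195) and 1.08 at 24 hr (SE 0.24, adjusted p = 0.00213), and in WM repopulating cells by 1.18 at 24 hr (SE 0.22, adjusted p = 0.000466). The call at 6 hr in control cells was lost in 3 of 8 fits that left out a single library (highest adjusted p = 0.0560). The difference between 6 and 24 hr was not called in either.

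Bbc3 in control cells was at 20.9, 23.8 and 31.4 FPKM at 0 hr and at 14.5, 43.7, 16.8, 10.7 and 8.99 at 6 hr. Replicate 2, which stood apart, was the highest of all 8 libraries and the other 4 at 6 hr were the lowest. With it the difference was -0.61 (limma adjusted p = 0.148), and without both libraries that stood apart Bbc3 fell by 0.96 (adjusted p = 0.000168). At 24 hr the level was 26.4, 21.1, 23.2 and 9.03 FPKM in control and 18.7, 23.1, 23.6 and 25.4 FPKM in WM repopulating cells. Without those libraries Bbc3 rose from 6 to 24 hr by 0.87 in control (adjusted p = 0.00118) and 0.79 in WM repopulating cells (adjusted p = 0.00153). With all libraries the differences were 0.20 (limma adjusted p = 0.668) and 0.79 (adjusted p = 0.102), and neither was called.

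The effect of repopulation was asked by setting WM repopulating against control cells at each time. At 0 hr 1 of 10 members passed, Bcl2a1d, where 1.21% of all genes did. Its 4 WM repopulating libraries, at 10.01 to 15.3 FPKM, lay above the 3 control libraries at 1.17 to 2.37, a difference of 2.25 ± 0.35 (limma adjusted p = 0.00118). The sum of the 4 copies differed by 0.10 (adjusted p = 0.933), and limma-voom on the recovered reads gave 2.65 ± 0.83 for Bcl2a1d (adjusted p = 0.161). In the 4 GLOBAL controls, normalized apart, Bcl2a1d was at 66.8 to 101 FPKM, 21.7% to 26.2% of the sum of the copies. Bcl2 was the other member whose groups did not overlap (13.6% of all genes did not), at a difference of 0.52 ± 0.24 (adjusted p = 0.378). The neutrophil markers summed to 1837 to 9017 FPKM in the control and 2924 to 11015 FPKM in the WM repopulating libraries at 0 hr, and the 6 monocyte markers to 103 to 334 and 125 to 397 FPKM. Marker sums that lay apart at 0 hr were those of choroid plexus, 73.9 to 217 in control and 279.7 to 715 FPKM in WM repopulating cells, and of endothelium, 8.32 to 12.8 and 2.40 to 5.07 FPKM over the 3 of 4 markers listed. Also apart were oligodendrocyte markers, at 31.5 to 38.7 and 28.1 to 31.3 FPKM over 4 of 5 listed, and low sums for oligodendrocyte precursors (0.0322 to 0.331 and 0.752 to 0.909 FPKM) and neuroblasts (0.0176 to 0.0648 and 0.0753 to 0.183 FPKM over 2 of 4 listed). The part of these in the result was not tested.

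At 6 hr limma called 0 of 10 members between the kinds of cell, 0 had an unadjusted p under 0.05 and limma-voom also called 0, where 0.323% of all genes passed. At 24 hr 2 of 10 passed, both higher in WM repopulating cells, against 3.97% of all genes (1.68% higher). Mcl1 was 0.70 ± 0.18 higher (limma adjusted p = 0.0233), and 0.95 higher (adjusted p = 9.52e-05) without the control library at 139 FPKM and the other that stood apart. Bcl2a1d was 1.27 ± 0.33 higher (adjusted p = 0.0281), with all 4 WM repopulating libraries above all 4 control libraries, while the sum of the copies differed by 0.52 (adjusted p = 0.292). The adjusted p by limma-voom was 0.0505 for Mcl1 and 0.0533 for Bcl2a1d. The Mcl1 groups overlapped, with 139 in a control and 102 in a WM repopulating library. At 24 hr the 7 border macrophage markers summed to 62.8 to 81.3 FPKM in control and 21.8 to 45.3 FPKM in WM repopulating cells, endothelial markers to 7.57 to 12.7 and 1.51 to 7.19 FPKM, choroid plexus markers to 35.3 to 51.8 and 10.5 to 32.03 FPKM and neutrophil markers to 6424 to 15338 and 3193 to 7224 FPKM. Their part in these differences was not tested. With all other libraries kept, leaving out any one of 6 of the 8 libraries ended the call for Mcl1 (highest adjusted p = 0.0873) and any one of 5 that for Bcl2a1d (highest adjusted p = 0.104). Groups did not overlap for 2 members at 24 hr and for 0 at 6 hr, against 12.1% and 3.78% of all genes. The median difference of the members at 24 hr was 0.29 and that of all genes 0.02.

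Whether LPS acted differently in the 2 kinds of cell was tested by the interaction of time and kind. It was called for 0 of 10 members at 6 hr and 0 at 24 hr by limma and by limma-voom, where 0.0237% and 0.0867% of all genes passed, and 1 member had an unadjusted p under 0.05 at each time. These were Bcl2a1d at 6 hr, whose rise was 2.03 smaller in WM repopulating cells (SE 0.47, adjusted p = 0.221; -0.38 and adjusted p = 0.842 for the sum of the copies), and Mcl1 at 24 hr, whose rise was 0.73 ± 0.26 larger (adjusted p = 0.349). Without the libraries that stood apart Mcl1 passed at 24 hr, at 0.99 ± 0.17 (adjusted p = 0.0178), where 0.381% of all genes did.

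GLOBAL repopulation was set against its own controls in a table normalized apart from the LPS table, so no level is compared between them by a test. No member passed by limma or limma-voom, nor did any of the 16651 genes by limma (0%), and 2 members had an unadjusted p under 0.05. Bcl2l1 was at 93.0, 64.8, 82.5 and 109 FPKM in control and 65.9, 54.1 and 53.7 after repopulation, overlapping at 64.8 and 65.9, with a difference of -0.56 ± 0.18 (adjusted p = 0.402). Bcl2a1d was at 101, 74.6, 66.8 and 74.8 FPKM and then 117, 92.8 and 126, overlapping at 101 and 92.8, with a difference of 0.50 ± 0.17 (adjusted p = 0.450). The sum of the copies, at 340 ± 33.1 and 439 ± 46.8 FPKM, differed by 0.37 (adjusted p = 0.4925). The neutrophil markers summed to 2165 to 23206 FPKM in these controls and to 1288 to 4670 FPKM after repopulation. Astrocyte markers (3.92 to 5.18 FPKM in control and 2.19 to 3.79 FPKM after repopulation), lymphocyte markers (36.9 to 48.5 and 21.6 to 26.8 FPKM), border macrophage markers (32.1 to 54.99 and 18.3 to 31.7 FPKM) and endothelial markers (14.97 to 21.6 and 7.88 to 11.8 FPKM) lay apart, all lower after repopulation. Their part in these values was not tested.

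The ranges of the other 8 members overlapped between the GLOBAL groups. Bcl2a1b was at 180 to 211 FPKM in control and 208 to 248 FPKM after repopulation. Mcl1 was at 47.3 to 68.9 FPKM in control and 65.1 to 67.7 FPKM after repopulation, and Bax at 65.2 to 97.1 and 78.4 to 81.3 FPKM. Bid was at 33.6 to 46.8 and 40.4 to 44.9 FPKM, and Bbc3 at 29.8 to 58.5 and 32.5 to 39.2 FPKM. Bak1, Bcl2l11 and Bcl2 were the lowest, at 6.26 to 15.9, 5.67 to 10.1 and 1.44 to 2.498 FPKM over all 7 libraries. Groups of 0 members were apart, where those of 9.96% of all genes were.

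In SVZ tissue the members are read over all cells of the region, so fewer cells of a type and less RNA per cell cannot be told apart. The 10 microglial markers summed to 251 to 354 FPKM in control, 13.4 to 17.1 on PLX3397 and 23.1 to 33.7 after 5 days of recovery, lower in both treated groups. Over the same groups the 5 astrocyte markers summed to 279 to 308, 355 to 429 and 375 to 525 FPKM. The 4 oligodendrocyte precursor markers summed to 13.1 to 18.04 FPKM in control, 6.01 to 8.72 on PLX3397 and 6.43 to 10.3 after recovery, and border macrophage markers, 5 of 7 listed, to 3.90 to 7.72, 1.21 to 2.49 and 1.38 to 3.14 FPKM. Erythrocyte markers, 4 of 5 listed, were at 32.4 to 79.3, 41.8 to 57.9 and 91.3 to 336 FPKM, apart only after recovery. The part of these in the values below was not tested. Control replicate 1 carried choroid plexus markers at 21303 FPKM, far above every other SVZ library, and the counts of members called were the same without it.

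**Figure D4:**
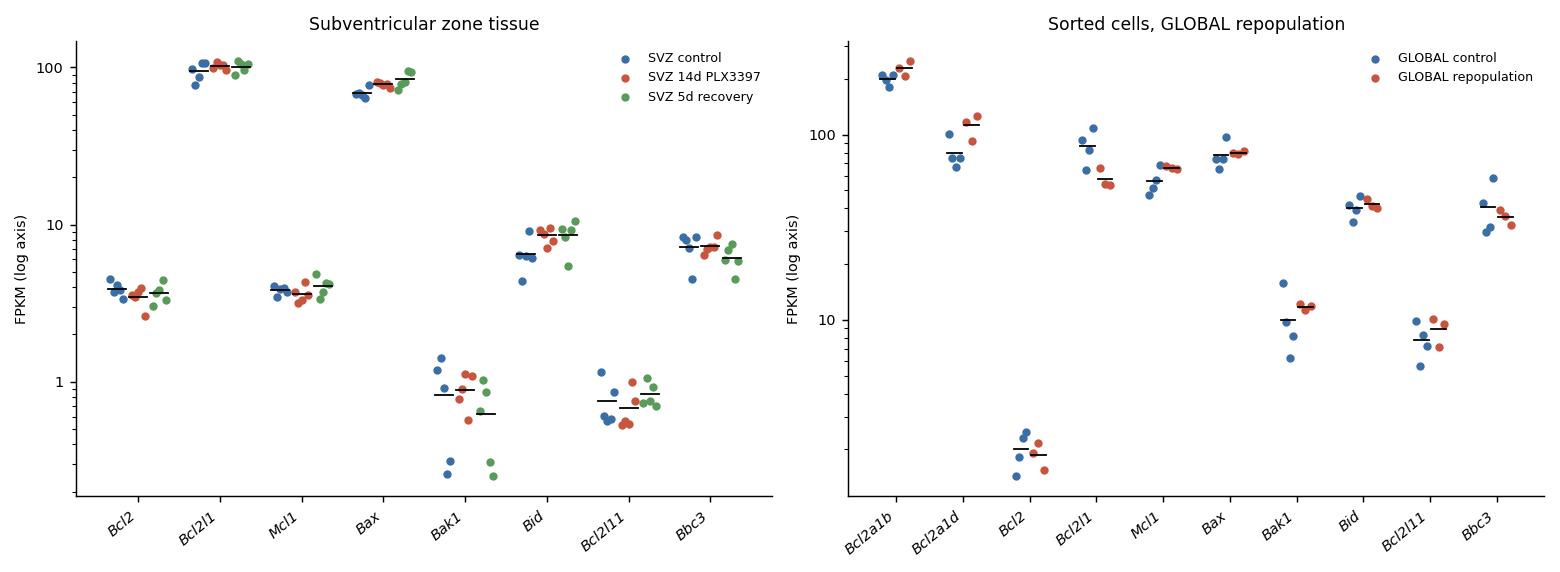
Level of the 8 family genes in each SVZ library and of the 10 in each library of the GLOBAL table (FPKM, log axes), by group. In both tables the groups of every gene overlap, with Bcl2l1 and Bax highest in SVZ tissue.

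None of the 7 tested members was called in SVZ tissue, by limma or by limma-voom, in any of the 3 comparisons, in which 1.26% (PLX3397 against control), 1.27% (recovery against control) and 0.325% (recovery against PLX3397) of 14151 genes passed. At an unadjusted p under 0.05 there were 2, 2 and 0 members. Bax was at 67.8, 68.9, 66.8, 63.9 and 77.0 FPKM in control, 80.7, 79.5, 76.7, 78.9 and 74.1 on PLX3397 and 71.8, 77.8, 81.2, 94.6 and 93.2 after recovery. The groups overlapped, and the difference after recovery was 0.27 ± 0.08 (adjusted p = 0.139). Bid was at 6.39, 4.39, 6.35, 9.12 and 6.11 FPKM, then 9.30, 8.77, 7.14, 9.57 and 7.87, then 9.43, 8.35, 5.46, 9.29 and 10.5. Its difference after recovery was 0.36 ± 0.16 (adjusted p = 0.281), again with overlap. Groups were apart for 0 members in the 3 comparisons, against 2.77%, 3.10% and 3.53% of all genes.

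Levels of the survival genes were set side by side for tissue and sorted cells. In SVZ tissue Bcl2l1 was at 76.8 to 109 FPKM in all 15 libraries while Mcl1 was at 3.16 to 4.85 and Bcl2 at 2.62 to 4.48 FPKM. Bbc3 was at 4.50 to 8.54 FPKM, Bak1 at 0.253 to 1.42 on 6 to 34 reads, and Bcl2l11 at 0.530 to 1.16 FPKM. In the sorted control cells at 0 hr Mcl1 was at 60.1 to 77.9 and Bcl2 at 0.883 to 1.35 FPKM, in a table normalized separately.

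Genes that work beside the family were read through 4 lists of 50 genes in all, of which 44 were tested in the LPS table. In control cells at 6 hr 12 were higher and 7 lower, with a median of 0.17 on the log2 scale, and in WM repopulating cells 9 were higher and 8 lower, with a median of 0.04. By list, 3 higher and 2 lower of 11 other family genes passed in control cells, 4 and 2 of 13 genes of the mitochondrial death machinery, 5 and 1 of 11 death receptor and inhibitor genes, and 0 and 2 of 9 regulators. The same lists gave 2 and 1, 3 and 2, 3 and 2, and 1 and 3 in WM repopulating cells. For all genes the shares called were 42.5% and 38.8% and the medians 0.01 and -0.00.

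Among other family genes Bcl2a1a rose most in control cells at 6 hr, from 17.7 ± 1.56 to 79.9 ± 48.4 FPKM (limma adjusted p = 1.11e-05; 60.9 ± 26.7 FPKM without replicate 2), and Bmf rose most in WM repopulating cells, from 4.78 ± 0.416 to 17.4 ± 4.02 FPKM (adjusted p = 1.04e-06). Bnip3l, a gene of mitochondrial removal, fell in both, by 1.12 and 0.67 on the log2 scale. In the death machinery Apaf1, the scaffold of the apoptosome, rose by 0.88 in control cells, or 0.60 without the libraries that stood apart. Casp2 fell by 0.79 in control cells, a call lost without them (-0.59, adjusted p = 0.0936), and Htra2 fell by 0.81 in WM repopulating cells.

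Of the death receptor genes, Fas rose in control cells at 6 hr by 3.59 ± 0.51 (1.33 ± 1.40 to 35.6 ± 41.4 FPKM, limma adjusted p = 4.98e-06), or by 3.06, to a mean of 17.3 ± 7.04 FPKM, without the libraries that stood apart. Mlkl, the executor of necroptosis, rose in WM repopulating cells by 3.67 ± 0.47 (1.21 ± 1.46 to 24.6 ± 9.47 FPKM, adjusted p = 1.49e-06). Nfkb1, a subunit of NF-kB, fell by 0.62 in control cells, or by 0.93 without the libraries that stood apart, and by 0.996 in WM repopulating cells. At 24 hr against 0 hr Ripk3, a kinase of necroptosis, rose by 2.21 in control and 1.28 in WM repopulating cells. Pmaip1, which encodes the BH3-only protein Noxa, rose by 1.07 in control cells.

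Between the kinds of cell, 2 of the 44 list genes passed, both at 24 hr, where 3.97% of all genes did. Rel, an NF-kB subunit known to drive Bcl2a1, was at 85.8 ± 18.2 FPKM in WM repopulating and 44.1 ± 2.33 FPKM in control cells (0.92 higher, limma adjusted p = 0.0450). Ripk3 was lower, at 14.6 ± 4.39 against 26.5 ± 4.43 FPKM (adjusted p = 0.0471), a call lost without the libraries that stood apart (adjusted p = 0.0815). None of the list genes passed in SVZ tissue, after GLOBAL repopulation, between the kinds of cell at 0 or 6 hr or by interaction.

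The genes whose log2 level followed Bcl2a1d most closely over the 24 libraries of the LPS table were Samd9l (Pearson's r 0.966), Id2 (0.956), Fth1 (0.951), Bcl2a1a (0.938) and Hcar2 (0.937), a description across libraries that share the LPS time course. In SVZ tissue Bid had the widest range of group means, and over the 15 libraries Alg2 (0.949), Serpina3n (0.926), 3010026O09Rik (0.916), Pithd1 (0.902) and Ngb (0.899) followed it most closely. The NF-kB consensus, searched on both strands of RefSeq promoter windows of 300 bases (GRCm38.p6), was in 2 of 15 windows of the members, 1 of 3 for Bcl2l1 and 1 of 3 for Bbc3, and in 8.46% of all 32851 windows. It was in no window of Bcl2a1b or Bcl2a1d.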

How the data were processed

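The authors deposited 3 tables of FPKM values, for 15 SVZ, 24 LPS and 7 GLOBAL libraries. Per the study's methods, Smart-seq2 and Nextera libraries were sequenced as paired reads of 43 bases, whereas the labels describe paired reads of 150 bases. The submitters' processing notes name STAR, featureCounts, edgeR, limma and the build mm10. How reads shared by gene copies were counted is not given in the sources used here. The members and lists were chosen with earlier results of these data known.

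Genes with at least 1 FPKM in 3 libraries were tested on log2(FPKM + 1) with limma 3.58.1 (R 4.3.3), one fit per table over all its groups, and Benjamini-Hochberg adjustment over all genes tested (14151, 12684 and 16651). Fold changes on this scale understate those of low genes. Each value was a whole number of reads (within 0.002 reads) for 15695, 15285 and 19930 genes, which gave the library totals of 2052895 to 18887844 reads, and limma-voom was run on these reads. Besides the 10 members, each of 4 fixed lists gave its most changed gene per direction, and the 5 genes most correlated with Bcl2a1d and, in SVZ tissue, with Bid were named. Some genes this rule would name are not reported here. Alternatives were a pseudocount of 0.1, no filter, quantile or median-of-ratios normalization, a replicate block, a fit of only the groups compared, leaving out each library, leaving out both libraries that stood apart, and the sum of the Bcl2a1 copies, of which the last 2 and limma-voom were chosen after the data were seen. No 2 libraries were identical. In simulated data with the LPS table's libraries, 73 of 100 genes changed 2-fold and 96 of 100 changed 4-fold were called at 6 hr against 0 hr in control cells. For GLOBAL repopulation against control the figures were 59 and 93 of 100, and for SVZ PLX3397 against control 94 and 100. Changed genes were drawn only from those with a mean log2(FPKM + 1) above 2, and the folds were set on that scale. The figures thus do not cover low members such as Bcl2 and Bak1.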

Additional observations from a re-analysis of the deposited data

Results flagged for a closer look

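In 84 combinations of gene and group, 7 values, from 4 libraries, lay far from the rest of their group by Dixon's test, which chance gives in about 1 in 20 groups. Of these, 3 were from control replicate 2 at 6 hr, with Bcl2a1b at 619 FPKM (the others at 158 to 287), Bcl2 at 0.889 FPKM and Bbc3 at 43.7 FPKM. A pair were from control replicate 4 at 24 hr, with Bcl2l1 at 15.8 FPKM and Mcl1 at 139 FPKM. The other 2 were Mcl1 in WM repopulating cells, at 88.1 FPKM in replicate 3 at 6 hr and 102 FPKM in replicate 1 at 24 hr.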

How the results depend on the processing

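Leaving out both control libraries that stood apart moved the count of members called from 6 to 10 in control cells at 6 hr, from 2 to 4 at 24 hr, from 2 to 5 between 6 and 24 hr, from 0 to 4 between 6 and 24 hr in WM repopulating cells and from 0 to 1 in the interaction at 24 hr. Limma-voom gave 0 in place of 1 between the kinds of cell at 0 hr, 0 in place of 2 at 24 hr and 1 in place of 0 in WM repopulating cells between 6 and 24 hr. It gave 3 in place of 2 in control cells between 6 and 24 hr (Bcl2a1b gained), and at 6 hr the same counts with other members, Bcl2l1 for Bcl2 in control and Bcl2a1b for Bid in WM repopulating cells. A fit of only the groups compared gave 1 between the kinds of cell at 24 hr and 3 in WM repopulating cells between 6 and 24 hr, and quantile normalization 4 in place of 2 in control cells between 6 and 24 hr. The cause was not tested. Leaving out a single library gave 0 to 2 between the kinds of cell at 24 hr (2 only without control replicate 4), 4 to 8 in control cells at 6 hr (4 without any one 0 hr control, 8 without control replicate 2 at 6 hr), 4 to 6 in WM repopulating cells at 6 hr (4 without replicate 2 at 6 hr), 0 to 1 between 6 and 24 hr there and 0 to 1 in each interaction. Elsewhere it gave 1 to 1 between the kinds at 0 hr, 2 to 2 and 2 to 3 in control cells at 24 hr against 0 and 6 hr, 3 to 4 in WM repopulating cells at 24 hr and 0 throughout for SVZ, GLOBAL and the kinds at 6 hr. Of 430 fold changes recomputed under the other alternatives 382 kept direction and call, 17 lost and 29 gained the call and 2 reversed. Both were Bcl2a1d against the sum of the copies, 0.032 between 6 and 24 hr in WM repopulating cells and 0.42 in the interaction at 24 hr, neither called. The median of all genes moved by over 0.1 only under limma-voom at 6 hr in WM repopulating cells, to 0.106.

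Replicate numbers are shared between groups, and correlations of same-numbered libraries, after removing group means, ran from -0.190 to 0.486. Their means were 0.0699 in SVZ, -0.000368 in LPS and 0.0984 in GLOBAL libraries. For other numbers the means were -0.0176, 0.000228 and -0.0326. These values do not settle whether the numbers pair the libraries. The replicate block gave 6 members called in control cells at 6 hr and 7 in WM repopulating cells, 2 at 24 hr in control and 4 in WM repopulating cells, 3 in control and 0 in WM repopulating cells between 6 and 24 hr, 1, 0 and 2 between the kinds of cell and 0 elsewhere, and changed the call of 3 of 53 fold changes. The level of Bcl2a1d in control cells at 0 hr rests on 6 to 13 reads a library.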
